A study of Mus musculus with 18 samples.

Results

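The genes described here are 10 mRNAs commonly used to recognise macrophages, read in axoplasm of mouse dorsal roots and sciatic nerves: Tyrobp, Fcer1g, Csf1r, C1qa, C1qb, C1qc, Cd68, Lyz2, Cd14 and Aif1. They were taken by gene name from the deposited count tables, and all 10 were found in both tables, among 12697 genes with a transcript listed for both tissues. Macrophages live in peripheral nerve between the fibres, where they take up myelin and cell debris and present antigen. The mRNAs are markers of myeloid cells and not of neurons. Axoplasm came from wild-type C57B6 mice, 5 animals pooled per biological repeat, with dorsal roots (close to the neuron's cell body) and sciatic nerve (farther out) taken from the same animals. A rabbit antibody to Kif5A, a heavy chain of the kinesin-1 motor that carries cargo along axons, or rabbit IgG as isotype control, was used to precipitate about 200 ug of lysate, and libraries of total RNA, labelled input, were the reference. The axoplasm is the supernatant of whole tissue ground in buffer and spun, so it can hold the contents of any cell of the nerve. Each tissue thus has 3 groups (Kif5A precipitate, IgG precipitate and input), with 3 libraries in each. No mutant allele or drug was part of the design.

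Library totals lay between 11584418 and 22580824 counts. The libraries were made by full-length amplification of cDNA, with no molecular identifiers, so counting error is only part of their error. The third input of sciatic nerve stood apart from the other two: its fibroblast markers summed to 8030 CPM (counts scaled to a common library size), against 20077 and 22592, and its sensory axon genes to 4372 CPM against 1457 and 1326. In the precipitates of dorsal root, the third library of both the IgG and the Kif5A group held the most macrophage RNA. Myelinating Schwann cell markers summed to between 4579 and 30781 CPM over the 18 libraries, so glial RNA was present in all of them.

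The 10 genes have different jobs. Tyrobp (DAP12) and Fcer1g (the Fc receptor gamma chain) are small membrane adaptors that carry ITAM motifs and pass on signals of many myeloid receptors. Csf1r is the receptor through which CSF1 and IL-34 keep macrophages alive. C1qa, C1qb and C1qc encode the 3 chains of C1q, the recognition molecule that starts the classical complement pathway. Cd68 is a lysosomal glycoprotein, Lyz2 the lysozyme of myeloid cells, Cd14 the co-receptor for bacterial lipopolysaccharide and Aif1 encodes the macrophage protein Iba1. Neutrophils also express Tyrobp, Fcer1g, Lyz2 and Cd14, and mast cells express Fcer1g.

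On GRCm38, Tyrobp lies on chromosome 7 (30413760 to 30417585), Fcer1g on chromosome 1 (171229572 to 171234365) and Lyz2 on chromosome 10 (117277331 to 117282321). The 3 C1q genes are neighbours on chromosome 4, C1qb at 136880129 to 136886187, C1qc at 136889804 to 136893065 and C1qa at 136895917 to 136898803. Cd68 is on chromosome 11 (69664213 to 69666153), Aif1 on chromosome 17 (35170991 to 35176068), and Cd14 (36725067 to 36726798) and Csf1r (61100598 to 61132149) are both on chromosome 18. Csf1r overlaps another gene on the opposite strand, and Lyz2 has a near copy, Lyz1, so their counts are less certain where counting did not use strand or split similar reads.

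The deposited counts are per transcript, and this matters for 2 members. Aif1 was counted over a single transcript shared by both tables, Aif1-205, a retained-intron form of 462 nt, and Csf1r over Csf1r-202, of 4701 nt. Aif1 had between 3 and 60 counts per library and Csf1r between 1 and 110. Under these gene names no other annotated transcript had deposited counts, except Aif1-203 in dorsal root. The smallest deposited total of any transcript was 17 counts in each tissue, and whether a filter removed other transcripts is not known. The low levels are therefore those of these transcripts, and the level of each whole gene cannot be read from them.

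In dorsal root, Fcer1g was counted over 2 transcripts, and the place where they part is shown because their share differed between input and IgG precipitate. Fcer1g-201 is the spliced coding form of 674 nt, and Fcer1g-202 runs on past the end of exon 2 into 126 bases of intron (chromosome 1, 171231051 to 171231176, minus strand). The last 30 bases of exon 2 are in lower case (chr1:171231177-171231206), and the 30 bases that follow in each transcript are in capitals.
Fcer1g-201: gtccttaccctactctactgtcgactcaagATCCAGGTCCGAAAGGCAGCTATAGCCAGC
Fcer1g-202: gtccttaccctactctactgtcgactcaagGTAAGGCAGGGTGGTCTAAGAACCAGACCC
The capitals of Fcer1g-202 begin with the GT of the splice donor, which is still present in unspliced RNA. This form held 5, 2 and 0 of the Fcer1g counts in the 3 inputs, which is 0.0450%, 0.0180% and 0% (0 of 8156 counts allows up to 0.0452% by the exact 95% binomial interval). In the IgG precipitates it held 76, 102 and 28 counts, or 2.21% (exact 95% interval 1.74 to 2.76%), 2.15% (1.76 to 2.61%) and 0.347% (0.231 to 0.501%). In the Kif5A precipitates it held 22, 29 and 0 counts, or 0.655%, 0.666% and 0%. The IgG libraries did not overlap the inputs, and the Kif5A libraries did, through the third of each group. These intervals cover counting error only, and this transcript was singled out after its values were seen. In the authors' deposited table its log2 fold change between Kif5A and input was 2.45 with a false discovery rate of 0.422. C1qc-202, a C1qc transcript annotated as non-coding and listed for dorsal root alone, was uneven between repeats, with 177 of 3482 C1qc counts in the first IgG library (5.08%) but 2 and 3 counts in the other IgG libraries.

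The upstream sequence of C1qb and C1qc is shown because the C1q genes varied together over the libraries. RefSeq promoter sequences (GRCm38.p6) were found for 6 of the 10 genes. The 250 bases before each gene's start as RefSeq sets it were searched on both strands for GAGGAA, a core bound by PU.1 (the product of Spi1, a factor that sets macrophage identity), and matches, read on the strand of the gene as GAGGAA or TTCCTC, are in capitals. The RefSeq start is not always the GENCODE one: the windows of C1qc, Fcer1g, Aif1 and Lyz2 reach into the GENCODE gene.
C1qb (chr4:136886201-136886450, minus strand): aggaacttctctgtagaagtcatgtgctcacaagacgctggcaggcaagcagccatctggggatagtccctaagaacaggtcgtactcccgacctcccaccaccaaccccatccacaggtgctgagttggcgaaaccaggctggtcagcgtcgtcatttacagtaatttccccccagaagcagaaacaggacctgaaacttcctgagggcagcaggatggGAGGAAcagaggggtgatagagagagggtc
C1qc (chr4:136892915-136893164, minus strand): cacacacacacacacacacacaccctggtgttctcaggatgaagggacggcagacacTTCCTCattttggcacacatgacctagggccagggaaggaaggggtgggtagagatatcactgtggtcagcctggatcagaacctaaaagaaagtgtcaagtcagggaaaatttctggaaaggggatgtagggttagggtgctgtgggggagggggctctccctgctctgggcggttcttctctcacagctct
The motif stood in 4 of the 6 windows (C1qb, C1qc, Cd68 and Aif1), and in 23.3% of 32851 such windows of all genes. A match describes these letters only.

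Levels were set beside each other per kilobase of the counted transcript, as CPM per kb (mean ± SD, n = 3). Lyz2 was the highest of the 10 genes in all 6 groups, at 1521 ± 236 CPM per kb in the inputs of dorsal root and 1363 ± 71.5 in those of sciatic nerve. Tyrobp and Fcer1g came next in both inputs, at 961 ± 109.7 and 918 ± 115 in dorsal root and 643 ± 102 and 619 ± 142 in sciatic nerve, and the 2 adaptors did not differ beyond their spread. The C1q genes followed in the order C1qb, C1qc and C1qa, at 456 ± 67.9, 311 ± 39.3 and 227 ± 16.5 in the inputs of dorsal root. Cd14 (25.6 ± 4.99) and Cd68 (22.5 ± 1.91) stood about level, and the single counted transcripts of Aif1 and Csf1r came last, at 1.98 ± 0.714 and 0.382 ± 0.144. In both IgG groups and in the Kif5A precipitates of dorsal root C1qb ranked above the adaptors, though within the spread of the libraries. In the Kif5A precipitates of sciatic nerve it lay between Tyrobp and Fcer1g. Summed, the 10 genes took 0.216% to 0.534% of each library, and Lyz2 alone held 43.3 to 58.5% of that.

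**Figure D1:**
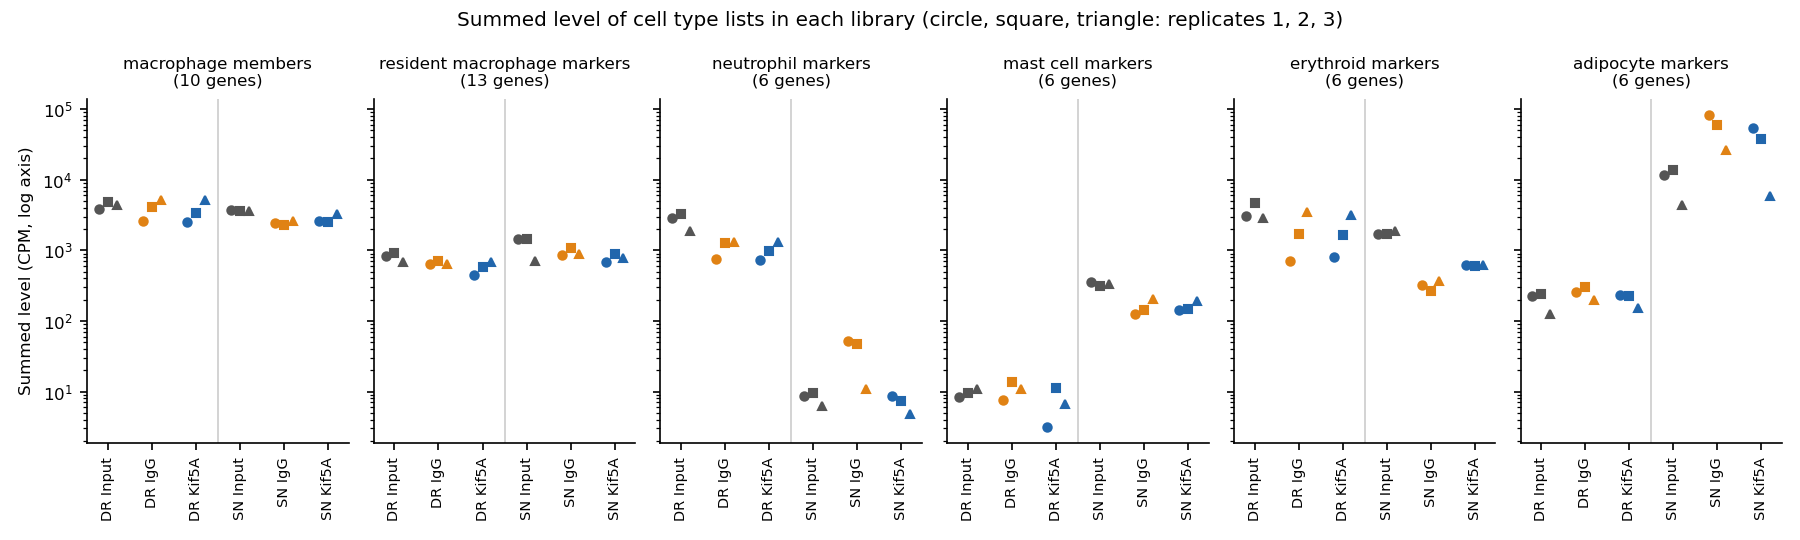
Summed level in CPM (vertical, log axis) of 6 lists of cell type genes in each of the 18 libraries, by group (DR, dorsal root; SN, sciatic nerve); each point is 1 library, and circles, squares and triangles are replicates 1, 2 and 3. The macrophage genes stayed between 2252 and 5173 CPM throughout, while neutrophil markers lay between 741 and 3267 CPM in dorsal root and between 4.79 and 51.5 CPM in sciatic nerve, and mast cell markers the other way around.

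The input libraries show which myeloid RNA each tissue held. The 10 genes summed to 3809, 4818 and 4393 CPM in the inputs of dorsal root and to 3721, 3556 and 3623 CPM in those of sciatic nerve, so the lowest dorsal root library stood just above the highest of sciatic nerve. In bulk samples, fewer cells of a type and less RNA per cell cannot be told apart. With edgeR's quasi-likelihood test none of the 10 genes passed between the 2 inputs (0 of 10, against 4.12% of the 12215 genes tested). At an unadjusted p under 0.05, 2 members were lower in sciatic nerve (6.96% of all genes) and 1 higher (7.62%). The DESeq2 count was 0 of 10, against 8.89% of all genes. Tyrobp had 503, 613 and 509 CPM in dorsal root and 409.7, 379 and 298 in sciatic nerve, a log2 ratio of -0.57 (SE 0.22, adjusted p = 0.267). Fcer1g had 620.2, 695 and 541 CPM against 523, 391 and 338, a log2 ratio of -0.55 (SE 0.24, adjusted p = 0.333). For both adaptors every dorsal root input lay above every sciatic nerve input. That makes 2 of 10 genes with lower libraries throughout, against 11.1% of all genes, and 1 of 10 with higher ones, against 9.97%.

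The 1 higher gene was Aif1, with 0.894, 1.26 and 0.597 CPM in dorsal root and 3.70, 2.67 and 1.54 in sciatic nerve (log2 ratio 1.53, SE 0.59, adjusted p = 0.258). These values rest on at most 60 counts, and over all Aif1 transcripts of each table the log2 ratio was 0.80. That alternative adds Aif1-203 to the dorsal root counts alone, so it counts the tissues over unlike transcripts. Without the third input of sciatic nerve Aif1 passed the test (log2 ratio 1.798, adjusted p = 0.0422), as the number of genes called rose from 503 to 2538. With the third replicate of every group left out, Tyrobp (-0.53, adjusted p = 0.00865), Fcer1g (-0.55, adjusted p = 0.0116) and C1qa (-0.39, adjusted p = 0.0335) passed, among 3517 genes. Over the alternatives tried the adjusted p of these 4 genes reached as high as 0.9996, 0.9996, 0.9996 and 0.9985 for Tyrobp, Fcer1g, C1qa and Aif1. None of the remaining members passed. The counted Csf1r transcript had 1.06, 1.95 and 2.39 CPM in dorsal root and 1.97, 3.71 and 1.54 in sciatic nerve (log2 ratio 0.43, SE 0.58), with overlap. Lyz2 had 1649, 2238 and 2117 CPM against 1885, 1798 and 1697 (log2 ratio -0.14, SE 0.21), and Cd68 had 25.0, 29.4 and 28.6 CPM against 27.3, 38.5 and 17.6 (0.017, SE 0.32). The median log2 ratio of the 10 genes was -0.12, and that of all genes 0.056.

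Other myeloid cells differed far more between the inputs than the 10 genes did. All 6 measured neutrophil markers of 11 listed fell in sciatic nerve relative to dorsal root, with a median log2 ratio of -8.14. S100a9, a calcium-binding protein abundant in neutrophils, had a log2 ratio of -7.94 (SE 0.38), its partner S100a8 -8.33 (SE 0.41) and the antimicrobial peptide precursor Camp -9.93 (SE 0.49), each with an adjusted p under 0.05. Summed, these markers were at 1883 to 3267 CPM in the inputs of dorsal root and 6.20 to 9.57 CPM in those of sciatic nerve. Of the mast cell markers, 4 of 6 rose in sciatic nerve (median log2 ratio 5.63), among them the proteases Mcpt4 (7.04, SE 0.33), Tpsb2 (7.56, SE 0.36) and Cma1 (6.56, SE 0.39). Both cell types share adaptors with macrophages, and their part in the levels of Tyrobp and Fcer1g was not tested.

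Of 13 measured markers of resident macrophages, 2 rose in sciatic nerve, Folr2 (the folate receptor beta; log2 ratio 2.16, SE 0.29, adjusted p = 0.00309) and Cbr2 (a carbonyl reductase; 1.47, SE 0.31, adjusted p = 0.0309), none fell, and the median was 0.59. None of the 13 was at 0 in any group. Folr2 had 24.1, 23.7 and 15.3 CPM in dorsal root and 83.9, 115.8 and 79.4 in sciatic nerve, with no overlap. Ly6c2, a marker of blood monocytes, fell (-4.84, SE 0.41), from 86.3, 66.7 and 75.2 CPM in dorsal root to 4.13, 1.72 and 1.93 in sciatic nerve, as the only one of 5 monocyte markers past the test. Sall1, a transcription factor known from microglia, also fell (-4.28, SE 0.48), and the other 5 microglia markers did not pass. Of the complement genes, C3 (2.38, SE 0.26) and C1ra (1.63, SE 0.36) rose, 2 of 10, and 3 of 8 fibroblast markers rose in the same comparison (median 1.52), whose part was not tested. In the CSF1 receptor list Cebpa, a factor of the myeloid and fat cell lineages, rose (1.99, SE 0.37), 1 of 9, while all 6 measured adipocyte markers rose with it (median 6.32). No member of the lists for ITAM signalling, lipopolysaccharide recognition, lysosomes or antigen presentation passed (0 of 11, 8, 18 and 9).

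**Figure D2:**
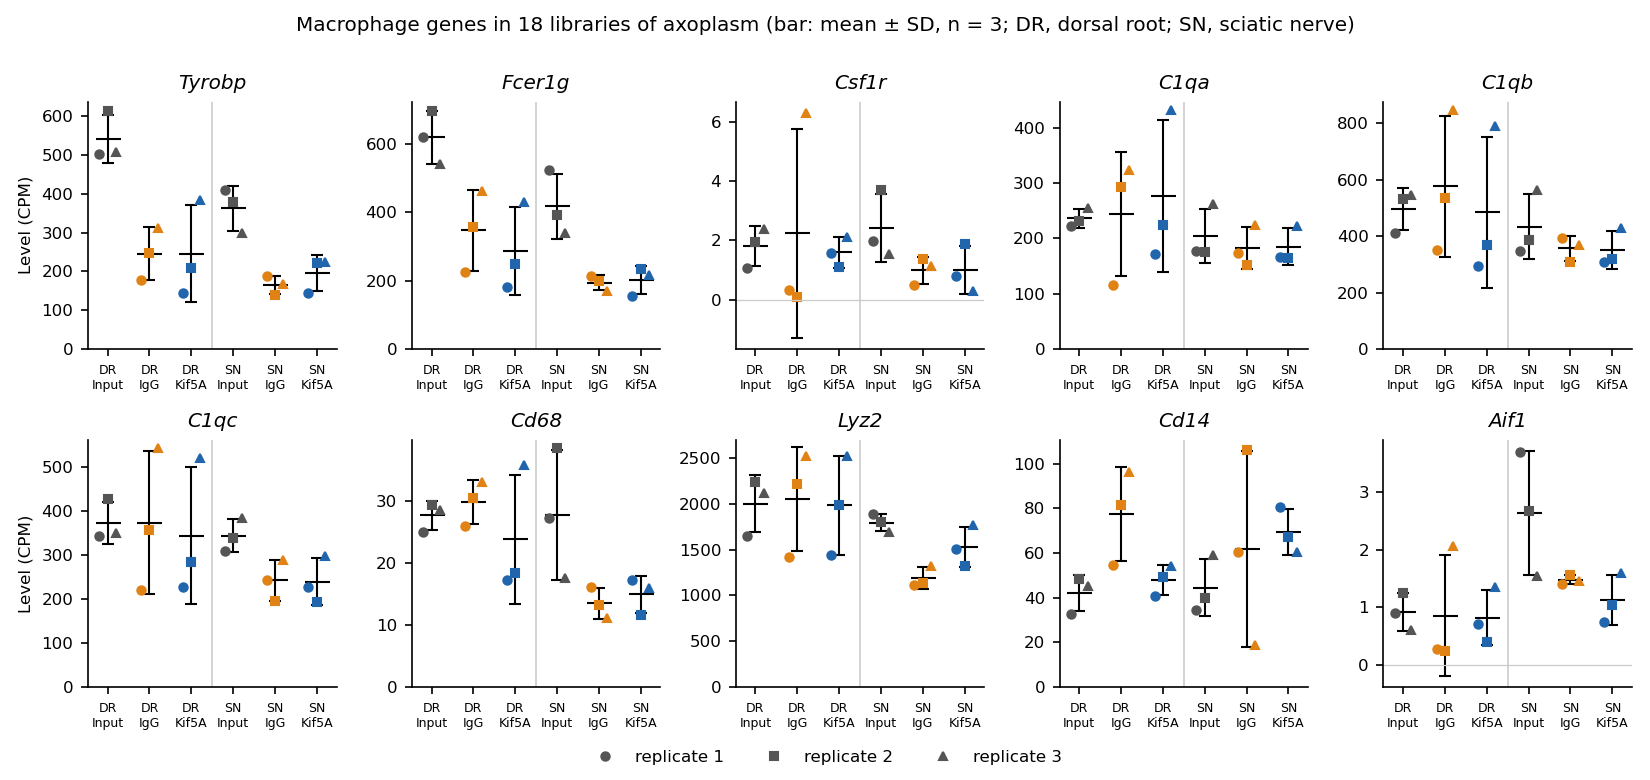
Level in CPM (vertical, linear axis) of each of the 10 genes in the 18 libraries, by group; points are libraries, with circles, squares and triangles for replicates 1, 2 and 3, and bars give mean ± SD (n = 3). Every input of Tyrobp and Fcer1g lies above every precipitate of its tissue, whereas most other genes overlap and the third precipitates of dorsal root stand highest.

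The precipitates against input ask which RNA was kept or lost on the beads. The adaptors were the members with the plainest pattern, since both were lower in the precipitates of either antibody. Tyrobp had 503, 613 and 509 CPM in the inputs of dorsal root, 177, 248 and 312 with IgG and 145, 208 and 385 with Kif5A. In sciatic nerve it had 409.7, 379 and 298 CPM in the inputs, 187, 140.5 and 166 with IgG and 144, 222 and 225 with Kif5A. No precipitate reached the lowest input of its tissue. Fcer1g had 620.2, 695 and 541 CPM in the inputs of dorsal root, 225, 356 and 462 with IgG and 183, 248 and 431 with Kif5A. In sciatic nerve its inputs had 523, 391 and 338 CPM, the IgG libraries 214, 199 and 169.7 and the Kif5A libraries 154, 234 and 216. Again no precipitate overlapped the inputs.

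For Kif5A against input in dorsal root, Tyrobp had a log2 ratio of -1.14 (SE 0.33, adjusted p = 0.325) and Fcer1g of -1.11 (SE 0.33, adjusted p = 0.336) in edgeR's quasi-likelihood test. That test called 0 of the 10 genes and 0% of 12681 genes, while at an unadjusted p under 0.05 the 2 adaptors were lower (5.11% of all genes) and 0 members higher (3.28%). DESeq2 called both adaptors (adjusted p = 0.0403 and 0.0482), with 1.64% of all genes called. The authors' deposited table gave log2 fold changes of -1.30 for Tyrobp and -1.26 for Fcer1g-201, with false discovery rates of 0.00288 and 0.00592. With the third replicate of every group left out, both also passed in edgeR (log2 ratio -1.60, adjusted p = 0.0181, and -1.55, adjusted p = 0.0203), with 454 genes called in place of 0. Over all alternatives the adjusted p ran from 0.0181 to 1 for Tyrobp and from 0.0203 to 1 for Fcer1g. The libraries of 2 of 10 members were all lower than the inputs, against 15.6% of all genes, and of 0 of 10 all higher, against 15.8%. The median log2 ratio of the members was -0.14, beside 0.055 for all genes. Scaled by library size alone, the members' median was 0.16 and that of all genes 0.39. Tyrobp (-0.84 at that scaling) and Fcer1g kept their direction there. With library size alone 2 of the 10 members had a negative ratio, in place of 8 at the TMM scaling. The share of all genes with a negative ratio was 47.2% at the TMM scaling and was not computed for library size alone.

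In sciatic nerve, Kif5A against input gave log2 ratios of -1.05 for Fcer1g (SE 0.33, adjusted p = 0.579) and -0.88 for Tyrobp (SE 0.33, adjusted p = 0.718). With edgeR 0 of 10 members and 0.00789% of all genes passed. At an unadjusted p under 0.05, 2 members were lower (3.52% of all genes) and 0 higher (2.56%), and by DESeq2 0 members and 0.468% of all genes passed. The libraries of 4 of 10 members lay entirely below the inputs, against 9.23% of all genes: the adaptors, Cd68 and C1qc. Cd68 had 27.3, 38.5 and 17.6 CPM in the inputs and 17.3, 11.64 and 15.9 with Kif5A, a log2 ratio of -0.89 (SE 0.43), with its highest precipitate just below the third input. C1qc had 309, 340.3 and 385 CPM in the inputs and 229, 193 and 297 with Kif5A (-0.52, SE 0.34). Cd14 was the 1 member of 10 with every precipitate above the inputs, against 8.22% of all genes, at 80.5, 67.0 and 60.6 CPM beside 34.7, 40.0 and 58.9 (0.64, SE 0.45, adjusted p = 0.901). The median log2 ratio of the members was -0.70, and that of all genes 0.020. The adaptors' ratios did not differ detectably between the tissues: sciatic nerve minus dorsal root was 0.26 (SE 0.46) for Tyrobp and 0.056 (SE 0.46) for Fcer1g, adjusted p = 0.9999 for both by edgeR. In that test 0 of 10 members and 0% of all genes passed. At an unadjusted p under 0.05 there were 0 members in either direction (0.347% of all genes lower, 0.513% higher), and DESeq2 called 0 members and 0% of all genes.

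The control antibody gave values of the same kind. The IgG and Kif5A comparisons share their input libraries, so they are not independent, and their values are set side by side without a test of likeness. For IgG against input in dorsal root the log2 ratios were -1.14 for Tyrobp (SE 0.33, adjusted p = 0.0758) and -0.83 for Fcer1g (SE 0.33, adjusted p = 0.168), beside -1.14 and -1.11 with Kif5A. In sciatic nerve they were -1.14 for Tyrobp (SE 0.33, adjusted p = 0.0627) and -1.10 for Fcer1g (SE 0.33, adjusted p = 0.0683), beside -0.88 and -1.05. With edgeR 0 of 10 members passed in either tissue, against 1.23% of all genes in dorsal root and 3.74% in sciatic nerve. At an unadjusted p under 0.05, 2 members were lower in dorsal root (10.3% of all genes) and 4 in sciatic nerve (10.4%), and 0 were higher (9.12% and 8.81%). With DESeq2, which called 11.2% of all genes in each tissue, Tyrobp passed in dorsal root (adjusted p = 0.0118), and Tyrobp (0.0110), Fcer1g (0.0133) and Cd68 (0.0362) passed in sciatic nerve. Without the third IgG library of dorsal root, Tyrobp passed in edgeR there (log2 ratio -1.35, adjusted p = 0.0319). Leaving out the third replicate of every group, Tyrobp (0.0170) and Fcer1g (0.0317) passed in dorsal root, and in sciatic nerve Tyrobp (0.0327) and Fcer1g (0.0434). Over all alternatives the adjusted p of Tyrobp ran from 0.0118 to 0.499 in dorsal root and from 0.0110 to 0.471 in sciatic nerve. That of Fcer1g ran from 0.0317 to 0.644 and from 0.0133 to 0.386, and that of Cd68 in sciatic nerve from 0.0362 to 0.721.

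**Figure D3:**
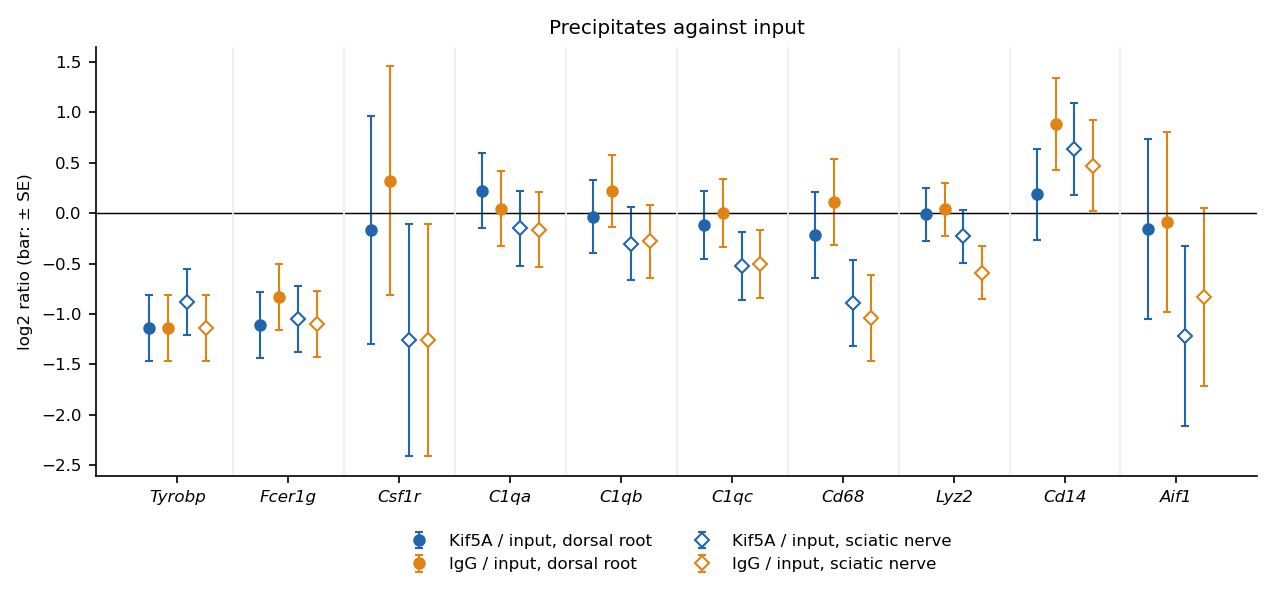
Log2 ratio to input (vertical) of each of the 10 genes in the Kif5A (blue) and IgG (orange) precipitates of dorsal root (filled circles) and sciatic nerve (open diamonds); bars are ± SE from edgeR. All 4 values lie between -0.83 and -1.14 for Tyrobp and Fcer1g, and between 0.19 and 0.88 for Cd14.

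For IgG in dorsal root, 2 of 10 members (the adaptors) had every IgG library below the inputs, against 18.1% of all genes, and 1 of 10, Cd14, had every one above, against 12.3%. Cd14 had 32.8, 48.3 and 45.0 CPM in those inputs and 54.8, 81.5 and 96.4 with IgG, a log2 ratio of 0.88 (SE 0.45, adjusted p = 0.296). The median of the members was 0.041 and that of all genes 0.059. In sciatic nerve 6 of 10 members had every IgG library below the inputs, against 14.2% of all genes, and none had every one above, against 9.89%. Besides the adaptors these were Cd68 (16.1, 13.2 and 11.1 CPM; log2 ratio -1.04, SE 0.43), Lyz2 (1111, 1136 and 1323 CPM; -0.59, SE 0.26), C1qc (243, 196 and 289.8 CPM; -0.50, SE 0.34) and the counted Csf1r transcript (0.486, 1.37 and 1.13 CPM; -1.26, SE 1.15). None of these 4 passed edgeR's test (adjusted p = 0.191, 0.227, 0.446 and 0.595). The median of the members was -0.71, and that of all genes 0.011.

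The length of the counted transcript moved with these ratios. Tyrobp (564 nt) and Fcer1g (674 nt) are short, and genes counted over transcripts of at most 700 nt had a median log2 ratio to input of -0.96 with Kif5A and -1.09 with IgG in dorsal root (1028 genes). In sciatic nerve the same genes had medians of -0.70 and -0.45. The next length class, which holds the C1q genes, Cd68 and Lyz2 (1040 to 1316 nt), had medians of -0.19 and -0.25 in dorsal root and -0.089 and -0.11 in sciatic nerve, and longer classes were slightly positive. The adaptors in dorsal root thus lay close to the median of short transcripts. In sciatic nerve they lay below it with IgG (Tyrobp -1.14, Fcer1g -1.10) and, by less, with Kif5A (-0.88 and -1.05, SE 0.33 for each). All members of the next class lay below its sciatic nerve medians with either antibody, Cd68 furthest (-0.89 with Kif5A, -1.04 with IgG). In dorsal root they lay above its medians, except Cd68 with Kif5A. The shortest counted member, Aif1-205 (462 nt), had dorsal root ratios of -0.16 (SE 0.89) with Kif5A and -0.088 (SE 0.89) with IgG, above the medians of its class. In sciatic nerve its ratios were -1.22 (SE 0.90) with Kif5A and -0.83 (SE 0.89) with IgG, below those medians. With SEs this large its place relative to its class is uncertain. The part of length in the adaptors' ratios was not tested. Neutrophil markers moved the same way in dorsal root, where all 6 had negative ratios with either antibody (summed 1883 to 3267 CPM in the inputs, 754 to 1297 with IgG and 741 to 1302 with Kif5A). In sciatic nerve those markers summed to 4.79 to 51.5 CPM. There 5 had positive ratios to input and 1 a negative one with IgG (median log2 ratio 1.75). With Kif5A 2 were positive and 4 negative (median -0.14). Their part in the adaptors' ratios was not tested.

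**Figure D4:**
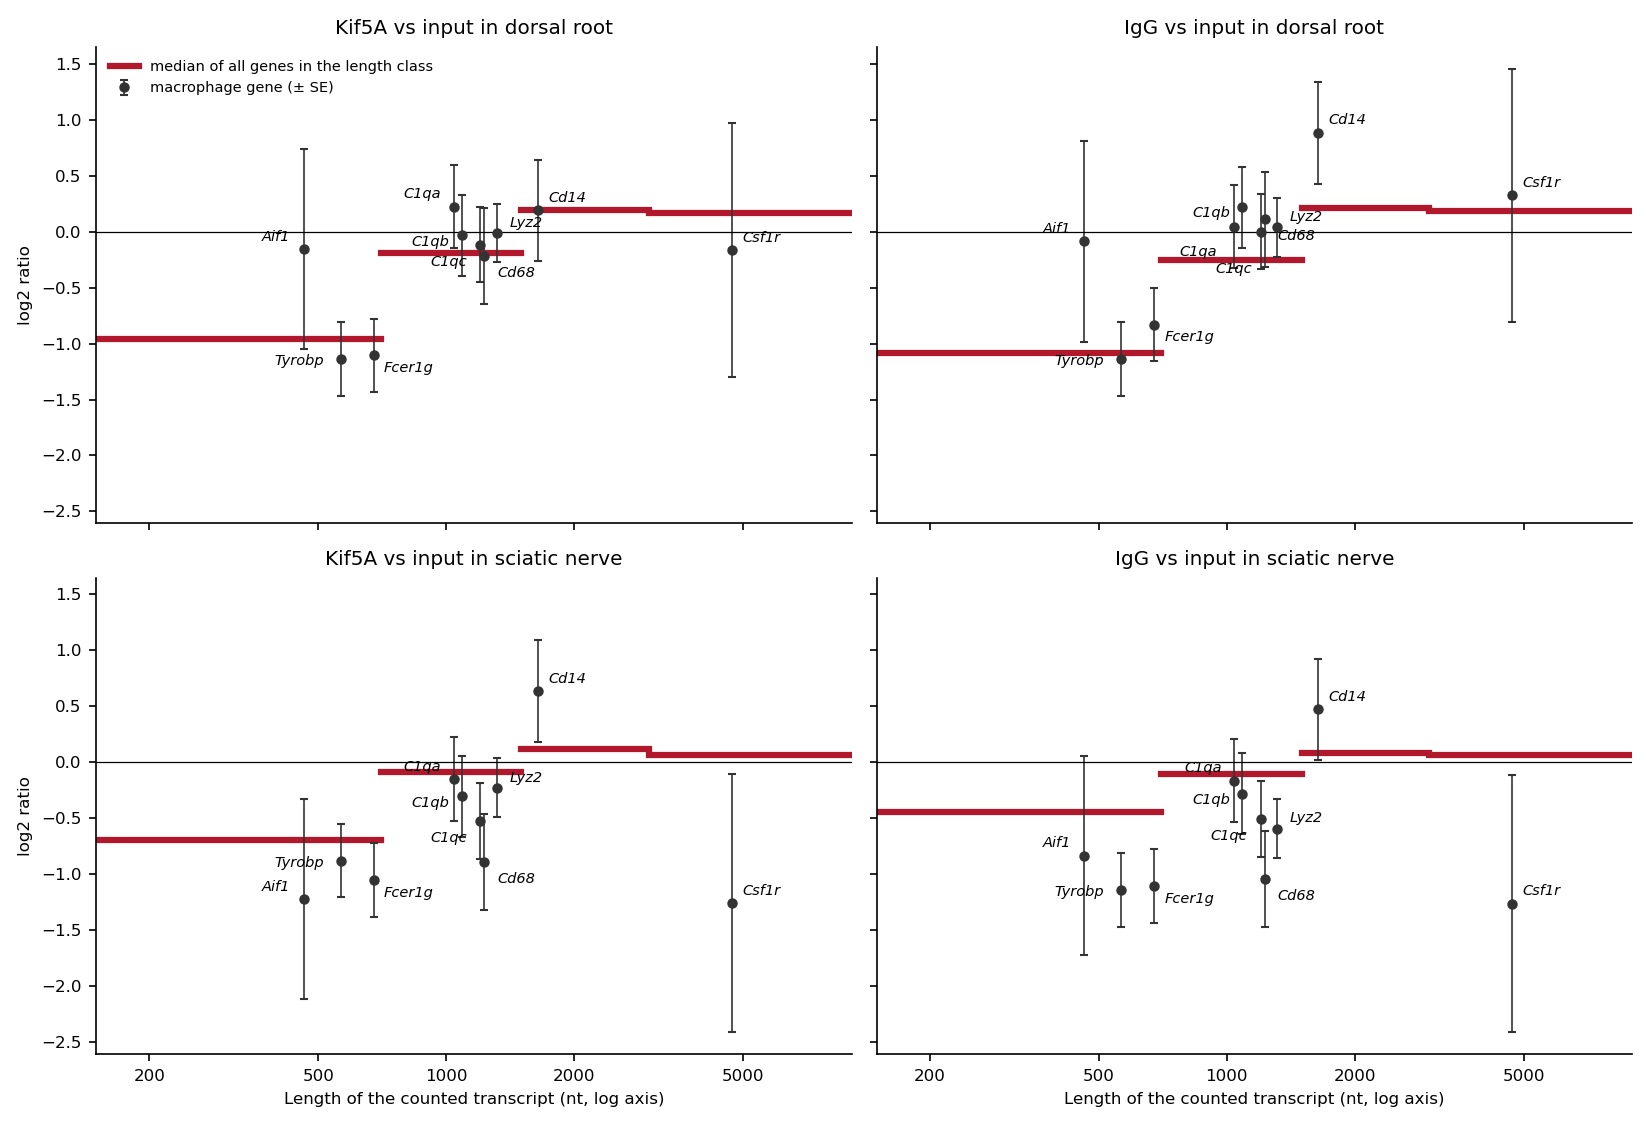
Log2 ratio to input (vertical) of the 10 genes (points, ± SE) against the length in nt of the transcript they were counted over (horizontal, log axis), for Kif5A and IgG precipitates of both tissues; thick red lines are medians of all genes in 4 length classes. Tyrobp and Fcer1g sit on the left with the short transcripts, whose median is -0.96 and -1.09 in the dorsal root panels.

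Ratios between members within a library do not depend on how libraries are scaled, and they were computed after the values above were seen. Against Lyz2 they showed the same split. Per 100 counts of Lyz2, Tyrobp had 30.5, 27.4 and 24.0 counts in the inputs of dorsal root, 12.5, 11.2 and 12.4 with IgG and 10.0, 10.5 and 15.3 with Kif5A. In sciatic nerve it had 21.7, 21.1 and 17.6 in the inputs, 16.9, 12.4 and 12.6 with IgG and 9.56, 16.8 and 12.8 with Kif5A. All 6 inputs stood above all 12 precipitates by this ratio. Per 100 counts of C1qa, C1qb and C1qc the split was less complete. Tyrobp then had 51.6, 51.5 and 44.25 counts in the inputs of dorsal root. There it had 25.8, 20.9 and 18.2 with IgG and 20.9, 23.7 and 22.1 with Kif5A. In sciatic nerve the inputs (49.1, 42.0 and 24.7) overlapped the Kif5A libraries (20.4, 32.9 and 23.7), but not the IgG libraries (23.1, 21.5 and 18.9). Cd14 went the opposite way in dorsal root, at 1.99, 2.16 and 2.13 counts per 100 of Lyz2 in the inputs, 3.85, 3.68 and 3.82 with IgG and 2.81, 2.48 and 2.14 with Kif5A. Ratios were also taken between the adaptors and among the C1q genes, and whether they were steadier than those of other pairs was not tested. Per kilobase, Fcer1g stood at 0.803 to 1.24 times Tyrobp in the 18 libraries, C1qa at 0.346 to 0.638 times C1qb, and C1qc at 0.549 to 0.803 times C1qb.

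The comparison of Kif5A with IgG asks which RNA came down with the motor beyond the isotype control, and none of the 10 genes did so detectably. In dorsal root edgeR called 0 of 10 members and 0% of 12551 genes. At an unadjusted p under 0.05 there were 0 members in either direction, against 1.65% of all genes lower and 4.33% higher, and DESeq2 called 0 members and 1.21% of all genes. In sciatic nerve edgeR called 0 of 10 members and 0.0478% of all genes. Again 0 members had an unadjusted p under 0.05 (2.26% of all genes lower, 6.18% higher), and DESeq2 called 0 members and 3.28% of all genes. Tyrobp had log2 ratios of 0.051 (SE 0.37) in dorsal root and 0.30 (SE 0.37) in sciatic nerve, and Fcer1g of -0.22 (SE 0.35) and 0.098 (SE 0.35). The C1q genes lay between -0.20 and 0.23 in both tissues, with SEs of 0.39 to 0.42. The counted transcripts of Aif1 and Csf1r had SEs of 1.03 and 1.32, so little can be said of them.

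Lyz2 and Cd14 were the 2 members whose libraries did not overlap between the antibodies, each in 1 tissue. Lyz2 had 1111, 1136 and 1323 CPM with IgG in sciatic nerve and 1502, 1326 and 1764 with Kif5A, a log2 ratio of 0.41 (SE 0.29, adjusted p = 0.825), with the lowest Kif5A library only just above the highest IgG one. That was 1 of 10 members higher throughout, against 9.35% of all genes, and 0 of 10 lower, against 6.62%. In dorsal root Lyz2 had 1422, 2213 and 2526 CPM with IgG and 1445, 1983 and 2522 with Kif5A, a log2 ratio of -0.00021 (SE 0.29). Cd14 had 54.8, 81.5 and 96.4 CPM with IgG in dorsal root and 40.6, 49.2 and 54.1 with Kif5A (-0.64, SE 0.49, adjusted p = 0.9995), 1 of 10 members lower throughout against 5.43% of all genes, and 0 of 10 were higher against 7.83%. In sciatic nerve the Cd14 libraries overlapped, at 60.4, 106 and 18.7 CPM with IgG and 80.5, 67.0 and 60.6 with Kif5A (0.23, SE 0.49). The difference between the tissues was 0.87 (SE 0.70) for Cd14 and 0.41 (SE 0.40) for Lyz2, adjusted p = 1 for both by edgeR. In that test 0 of 10 members passed against 0.0159% of all genes, 0 had an unadjusted p under 0.05 (2.71% of all genes lower, 3.67% higher), and DESeq2 called 0 members and 1.51% of all genes.

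**Figure D5:**
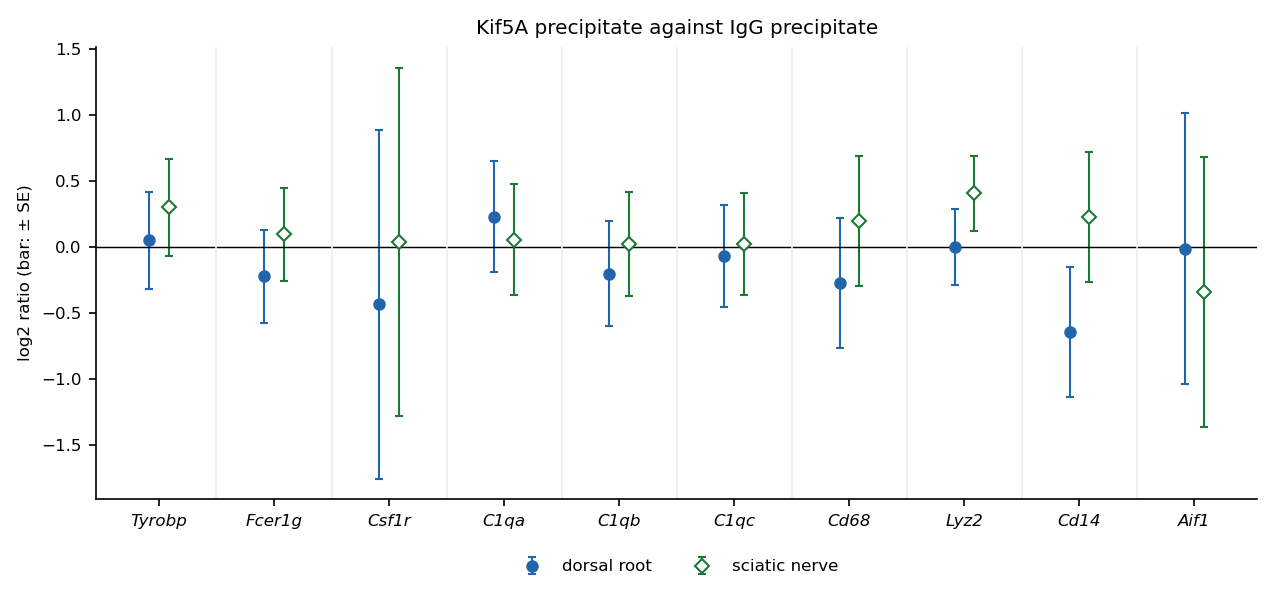
Log2 ratio of the Kif5A to the IgG precipitate (vertical) for each of the 10 genes in dorsal root (filled circles) and sciatic nerve (open diamonds); bars are ± SE from edgeR. The values lie between -0.64 (Cd14, dorsal root) and 0.41 (Lyz2, sciatic nerve), and most bars cross 0.

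The spread of the dorsal root precipitates limits these comparisons. Summed over the 10 genes, the IgG libraries had 2592, 4114 and 5151 CPM and the Kif5A libraries 2526, 3387 and 5173, so with both antibodies the third library had the highest level and the first the lowest. C1qb, for example, had 349.7, 536 and 845 CPM with IgG and 295, 368 and 789 with Kif5A, beside 411, 532 and 544 in the inputs. Erythroid markers moved with it, at 701.3, 1707 and 3526 CPM with IgG and 809.9, 1635 and 3205 with Kif5A. The part of blood RNA in the macrophage genes' spread was not tested. Without the third IgG library the members' median log2 ratio of Kif5A to IgG in dorsal root turned from -0.13 to 0.22, and without the first Kif5A library to 0.061. In sciatic nerve that median was 0.077, and the libraries were closer, at 2401, 2252 and 2572 CPM with IgG and 2602, 2540 and 3231 with Kif5A.

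The partner genes of the members gave few calls in the precipitates. Among 12 measured genes for ITAM receptors and signalling, 1 fell with IgG against input in sciatic nerve. This was Syk, the kinase recruited by phosphorylated ITAMs, which had no count in any IgG library of either tissue, against 27 counts over the 3 inputs of sciatic nerve and 36 over those of dorsal root. With the IgG group set at a floor of 3 counts, Syk was 12.5-fold lower in sciatic nerve (adjusted p = 0.0457 by edgeR) and 11.1-fold lower in dorsal root (adjusted p = 0.0679). This floor allows for counting error only, not for the spread between libraries. With Kif5A, Syk had 6, 7 and 9 counts in dorsal root and 55, 2 and 6 in sciatic nerve. Fcgr1, the high-affinity IgG receptor that signals through Fcer1g, was higher with IgG in dorsal root, where Fcer1g was lower, without passing the test. It had 22.1, 32.4 and 29.5 CPM in the inputs of dorsal root and 66.7, 106.6 and 60.7 with IgG (log2 ratio 1.48, SE 0.46, adjusted p = 0.0908). Of the 12 genes of this list, 6 had positive and 6 negative ratios in that comparison. Every IgG library lay below the inputs for 4 of them, against 18.1% of all genes, and above for 2, against 12.3%. No gene of this list passed for Kif5A against input (12 tested) or against IgG (11 tested) in either tissue. Syk was under the filter on low counts between the antibodies and was not tested there.

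In the CSF1 receptor and lineage list, Cebpa (2.46, SE 0.52, adjusted p = 0.0236) and Cebpb (1.53, SE 0.40, adjusted p = 0.0447) rose with IgG against input in sciatic nerve, 2 of 10. Both are also made by fat cells, and 3 of 6 adipocyte markers rose in the same comparison (median 2.53). In the complement list C4b, a component cleaved downstream of C1q, rose there (2.88, SE 0.52, adjusted p = 0.0140), 1 of 10. It had 59.5, 62.1 and 45.2 CPM in the inputs and 428, 596 and 207 with IgG, while C1qa, C1qb and C1qc did not rise (log2 ratios -0.16, -0.28 and -0.50). Sall1 was the only microglia marker past the test, with 2 counts over the IgG libraries of sciatic nerve and 61 over the inputs, a ratio of 42.4 between input and IgG (exact 95% interval 11.2 to 358). That interval rests on counts summed over libraries and covers counting error only. The inputs held 30, 6 and 25 counts, so the spread between libraries is left out of it. Retnlg, a neutrophil gene, fell with IgG (-4.17, SE 0.57) and with Kif5A (-4.52, SE 0.60) in sciatic nerve, and Elane, a neutrophil protease, rose with IgG (6.62, SE 1.58). No gene of the lists for lipopolysaccharide recognition, lysosomes, antigen presentation, resident macrophages, monocytes or pan-leukocyte markers passed in any comparison with input or between antibodies.

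Over the 18 libraries some members varied closely together, a description across libraries that share tissue and antibody. Tyrobp and Fcer1g had a Pearson correlation of 0.966 in log2(CPM + 1), C1qb and C1qc of 0.919, C1qa and C1qb of 0.870 and C1qc and Lyz2 of 0.865. These were not separate sets, as C1qc had 0.737 with Fcer1g and Cd68 had 0.773 with Lyz2. Cd14 stood apart, with correlations between -0.25 and 0.20 with the other 9. So did the counted Aif1 transcript, read from few counts, with 0.142 against the other members summed, though it had 0.546 with Csf1r. Among 7437 genes with a mean of at least 10 CPM, the 8 most like the summed members were Hba-a1 (0.937), Hbb-bs (0.912), H2-Aa (0.912), Hbb-bt (0.898), Apod (0.889), Cystm1 (0.869), Itm2c (0.867) and Pcp4l1 (0.855). H2-Aa encodes an MHC class II chain of antigen-presenting cells, and Hba-a1, Hbb-bs and Hbb-bt are globins of red blood cells.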

How the data were processed

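The 10 genes and all gene lists were chosen with earlier results of these data known. Per the file headers, the authors deposited raw counts per Ensembl transcript, 1 table for each tissue, along with a log2 fold change and a p-value adjusted as a false discovery rate for each transcript, quoted only as the authors' deposited values. CASAVA 1.8.2, edgeR and build mm10 (GRCm38) were used, per the submitters' processing notes. Aligner, counting tool, annotation and use of strand: not given in the sources used here. Rows with no gene name (0.138% to 0.237% of a library) were left out.

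Counts were added per gene over the 16878 transcripts in both tables. Tests used the robust quasi-likelihood test of edgeR 4.0.16 in R 4.3.3 (TMM scaling, default filter, two-sided p adjusted by Benjamini and Hochberg over all genes tested, threshold 0.05), checked on simulated counts. One fit held the 12 precipitates (Kif5A against IgG), another all 18 libraries (precipitates against input), and the last only the 6 inputs. SEs come from this test. DESeq2 1.42.0, other scalings, no filter, other sets of libraries, all transcripts, a replicate block and leaving out libraries were alternatives. CPM are counts over library size and TMM factor. Lengths and positions are from GENCODE M21. Every comparison tested all 10 members, though not every ratio is printed. Where genes of another list are named, they are up to 3 past the threshold with the smallest p, or at most 2 others as values. Some calls are not named. In sciatic nerve against dorsal root inputs, 3 erythroid, 3 lymphocyte, 3 sensory axon genes and 1 Schwann cell gene fell. With IgG against input in sciatic nerve, 4 erythroid, 1 lymphocyte and 1 sensory axon gene fell and 1 endothelial gene rose. P-values rest on the spread between the 3 libraries within a group, each from a pool of animals, estimated jointly over all groups of a fit. The spread of groups not compared thus enters them. Libraries with equal numbers deviated together in every pair for Kif5A and IgG of dorsal root (correlations of 0.104 to 0.363), for Kif5A and input of both tissues (0.112 to 0.247 and 0.164 to 0.416) and for the 2 inputs (0.253 to 0.485). In that order, the equal-numbered library was the closest match for 2, 3, 2 and 1 of the 3 libraries, so equal numbers do not establish pairing. A replicate block changed no call of a member in these comparisons.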

Additional observations from a re-analysis of the deposited data

How the results depend on the processing

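Counts of members past the threshold were 0 in all 9 comparisons and stayed there with no filter, RLE size factors, library size alone, all transcripts and only the groups compared. DESeq2 called 2 members for Kif5A against input in dorsal root, 1 for IgG against input in dorsal root and 3 in sciatic nerve. Leaving out libraries gave 0 to 2 members in each of these comparisons and 0 to 3 for input against input. With the replicate block 1 member (Tyrobp) was called for IgG against input in dorsal root (adjusted p = 0.0425) and 1 in sciatic nerve (0.0449), where the numbers did not pair the libraries. The cause was not tested.

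The members' median log2 ratio turned for Kif5A against input in dorsal root with library size alone (0.16), and ran from -0.51 to 0.15 as libraries were left out. For IgG against input in dorsal root it was -0.016 with the replicate block and -0.29 to 0.30 without single libraries. For Kif5A against IgG it ran from -0.60 to 0.22 in dorsal root, and its difference between tissues from -0.062 to 0.73. The difference between tissues of the ratio to input ran from -0.58 to 0.066 for the median, from -0.010 to 0.75 for Tyrobp and from -0.30 to 0.48 for Fcer1g (-0.086 with library size alone). Log2 ratios were followed for a chosen set of members in each comparison, which held every member whose libraries did not overlap. Of these recomputed ratios, 406 kept their direction and their side of the threshold, 19 passed it with the same direction and 9 turned. Ratios outside the set, often near 0, are not in this tally. For Kif5A against input in dorsal root, library size alone left 2 members with a negative ratio in place of 8, as the median of all genes rose to 0.39. The count of all genes called moved by over 1.5 times in 80 recomputed counts and by less in 74: with only the groups compared, IgG against input gave 0 in place of 156 genes in dorsal root and 5 in place of 474 in sciatic nerve, and Kif5A against input in dorsal root gave 390 in place of 0. Library size alone also moved the median of all genes by 0.24 for IgG against input in dorsal root and by 0.18 for Kif5A against input in sciatic nerve. Depth limits Aif1 and Csf1r, read from at most 110 counts a library.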
